A study of Mus musculus with 67 samples.

Results

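Glutathione peroxidase genes were followed in RNA-seq of mouse forelimb buds. The 8 genes, Gpx1 to Gpx8, were taken by name from the 46983 gene IDs that each of the 14 gene tables lists. The family was chosen by the TPM of Gpx6, which was higher in Gli3-/- limbs in earlier results of these data, so the values of Gpx6 are given as a description without a test. At the pre-HH stage, before Hedgehog (HH) signaling begins in the limb, 3 WT and 4 Gli3-/- libraries were made from whole forelimb buds of E9.25 (21–23 S) embryos. At the post-HH stage, E10.5 (32–35 S), 4 WT and 3 Gli3-/- libraries were made from the anterior part of the buds. WT embryos were Swiss Webster, and the mutants carried the germline Gli3Xt-J allele, kept on that background by the study's methods, which removes part of Gli3, the main GLI repressor of the limb. By the sample records, about 4 pairs of buds were pooled for each E9.25 library, and 2 pairs for each E10.5 library. Because the later samples were anterior only, stage and the part of the bud taken cannot be told apart. In pooled tissue, fewer cells of a type and less RNA per cell cannot be told apart either.

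Glutathione peroxidases reduce hydrogen peroxide and lipid peroxides at the expense of glutathione. Several members carry selenocysteine in the active site and depend on the selenoprotein synthesis machinery. GPX1 is the abundant cytosolic form, GPX2 is an epithelial form best known from the gut, GPX3 is secreted into plasma, and GPX4 reduces phospholipid hydroperoxides in membranes and thereby guards cells from ferroptosis. GPX5 is known from the epididymis and GPX6 from olfactory tissue, while GPX7 and GPX8 reside in the endoplasmic reticulum and take part in oxidative protein folding.

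Gpx6 and Gpx5 are neighbors on chromosome 13, the chromosome that carries Gli3. Gpx6 (ENSMUSG00000004341.7) is listed from 21312217 to 21319624 on the + strand and Gpx5 (ENSMUSG00000004344.11) from 21286429 to 21292731 on the − strand, with 19485 bases between them. Gpx6 starts 5.58 Mb from the end of Gli3, so that loss of Gli3 and any difference linked to the mutant chromosome cannot be told apart at these genes. The promoter windows of these 2 genes are shown, since Gpx6 was measurable mainly in Gli3-/- limbs and Gpx5 was listed at 0 throughout. That of Gpx2 is shown as the only tested member that differed between genotypes, at E10.5. Each window runs from 250 bases before to 50 bases after a RefSeq start in GRCm38.p6 and is written 5′ to 3′ on the gene's strand. Capitals mark a match to the core element bound by NRF2 with small MAF proteins, TGANNNNGC, on either strand.
Gpx6 (chr13:21311953-21312252, + strand): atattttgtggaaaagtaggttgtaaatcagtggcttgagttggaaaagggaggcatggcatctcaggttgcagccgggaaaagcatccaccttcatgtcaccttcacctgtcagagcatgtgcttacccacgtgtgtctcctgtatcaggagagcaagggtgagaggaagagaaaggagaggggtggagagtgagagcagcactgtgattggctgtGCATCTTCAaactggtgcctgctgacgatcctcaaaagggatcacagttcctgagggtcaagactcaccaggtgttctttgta
Gpx5 (chr13:21292637-21292936, − strand): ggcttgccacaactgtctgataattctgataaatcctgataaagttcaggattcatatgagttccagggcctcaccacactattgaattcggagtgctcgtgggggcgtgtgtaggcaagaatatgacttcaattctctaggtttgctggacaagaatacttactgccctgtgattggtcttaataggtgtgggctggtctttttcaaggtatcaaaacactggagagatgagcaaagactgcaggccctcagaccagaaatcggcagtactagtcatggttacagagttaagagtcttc
Gpx2 (chr12:76795505-76795804, − strand): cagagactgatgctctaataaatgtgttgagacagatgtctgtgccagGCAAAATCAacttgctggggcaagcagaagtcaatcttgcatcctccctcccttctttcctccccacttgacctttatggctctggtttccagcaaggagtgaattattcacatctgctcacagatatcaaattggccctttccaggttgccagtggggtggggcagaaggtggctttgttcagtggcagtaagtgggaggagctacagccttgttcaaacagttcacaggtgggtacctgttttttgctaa
The Gpx6 match, GCATCTTCA, starts 33 bases before the start site, and the Gpx2 match, GCAAAATCA, starts 202 bases before it. Both are on the opposite strand, and the Gpx5 window holds none. This short element occurs in 41.3% of 32851 promoter windows of the same length, and 2 of the 8 members held it in a window. The GLI sequence GACCACCCA, searched on both strands, occurs in 83 of these windows (0.253%) and in no window of the 8 members. A match, or the lack of one, describes the letters in these windows only. The RefSeq span of Gpx6 begins at 21295465, upstream of its window and of the start listed above.

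Estimated depth was 38.1 to 56.8 M reads a library, so that 1 TPM stood for 20.7 to 29.3 reads on each kilobase of transcript. TPM is a share of all transcripts scaled for gene length, so levels can be ordered between genes. Gli3 was at 44.2, 15.8 and 44.6 TPM in E9.25 WT, 14.3 to 20.8 in E9.25 Gli3-/-, 73.4 to 89.7 in E10.5 WT and 38.7 to 40.9 TPM in E10.5 Gli3-/- limbs. WT replicate 2 at E9.25 thus lay within the mutant range by level. The coverage of Gli3 relative to its TPM, scaled to the most frequent ratio in each library, was 0.338 to 0.342 in all 7 WT libraries, that one included, and 0.122 to 0.139 in all 7 Gli3-/- libraries. All 8 limb mesenchyme markers, among them Tbx5 and Prrx1, were at 1 TPM or more in every library. The summed TPM of 7 flank and lateral plate markers was 69.3 to 186 in the Gli3-/- libraries of E9.25, compared with 22.0 to 51.8 in WT libraries of that stage. For 6 endoderm and yolk sac markers the sum was 258 in E9.25 Gli3-/- replicate 1. It was 61.5 to 65.4 in the other Gli3-/- libraries of that stage and 35.6 to 46.1 in WT libraries.

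In WT limbs at E9.25 the members were ordered, from the highest level to the lowest, as Gpx1, Gpx4, Gpx8, Gpx3, Gpx7, Gpx2, Gpx6 and Gpx5, and no neighbors in this order overlapped between libraries. Gpx1 and Gpx4, the cytosolic and the phospholipid form, together made up 79.2% to 85.9% of the summed TPM of the family in the 14 libraries. In E9.25 Gli3-/- limbs Gpx6 stood above Gpx2, and the ranges of Gpx8 and Gpx3 overlapped. In E10.5 WT limbs the ranges of Gpx7 and Gpx3 overlapped, as did those of Gpx6 and Gpx5, whereas in E10.5 Gli3-/- limbs no neighbors overlapped. The summed TPM of the 8 genes was 627 to 876 across libraries.

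**Figure D1:**
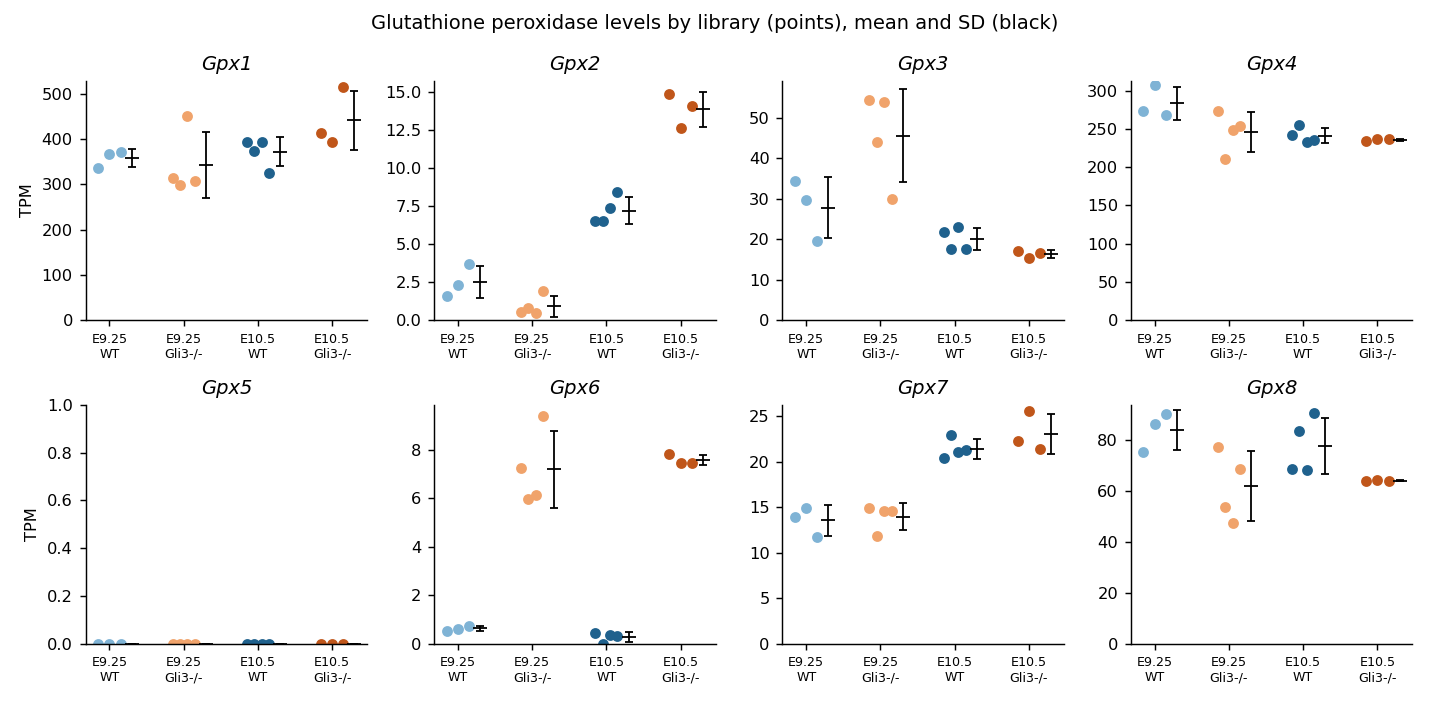
TPM of each of the 8 members (vertical axes, each from 0) in the 14 libraries of 4 groups, with points for libraries and black bars for the mean and SD of a group. Gpx6 was at 5.98 TPM or more in all 7 Gli3-/- libraries and at 0.74 or less in all 7 WT libraries, Gpx2 was highest in E10.5 Gli3-/- limbs, and Gpx5 was listed at 0 throughout.

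Gpx6 was close to the floor in WT limbs and clearly measurable in Gli3-/- limbs at both stages. At E9.25 it was at 0.54, 0.60 and 0.74 TPM in the WT libraries and at 7.24, 5.98, 6.12 and 9.38 TPM in the Gli3-/- libraries. At E10.5 it was at 0.46, 0.35 and 0.33 TPM in 3 WT libraries and listed at 0 in WT replicate 2, against 7.82, 7.46 and 7.44 TPM in the Gli3-/- libraries. The genotypes did not overlap at either stage, and the lowest mutant library was 8.05 times the highest WT library at E9.25 and 16.2 times at E10.5. The ratio of mean TPM was 11.4 at E9.25 and 26.5 at E10.5. As log2(TPM + 1), a scale that compresses differences between low values, the differences were 2.31 and 2.75, and relative to the median gene tested they were 2.09 and 2.77.

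These Gpx6 values rest on modest depth. The mean depth per base over the gene was 1.16 to 1.55 in E9.25 WT and 0 to 1.02 in E10.5 WT libraries, against 9.86 to 21.7 and 12.02 to 17.1 in the Gli3-/- libraries. Depth and TPM come from the same reads, so the separation of the genotypes by depth only repeats that by TPM. Between the stages Gpx6 differed little in mutant limbs, at 7.18 ± 1.57 TPM (SD, n = 4) at E9.25 and 7.57 ± 0.22 TPM (SD, n = 3) at E10.5, and the libraries of the stages overlapped. Even in Gli3-/- limbs Gpx6 made up only 0.745% to 1.37% of the summed TPM of the family, compared with 0% to 0.0969% in WT limbs. The pseudocount sets the size of the log2 difference for such a low gene, which was 3.31 at E9.25 and 4.57 at E10.5 with 0.1 in place of 1. Without E9.25 WT replicate 2 the E9.25 difference was 2.30, and leaving out any other single library gave 2.19 to 2.38.

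Gpx5, the neighbor of Gpx6, was listed at 0 in all 14 libraries, Gli3-/- libraries included. The flanking genes are described beside Gpx6, which was chosen by its values. The nearest tested gene before the pair was Trim27, an E3 ubiquitin ligase gene, at 54.2 to 104 TPM over all libraries. Its log2 difference between genotypes was 0.30 at E9.25 (limma adjusted p = 0.311) and 0.08 at E10.5 (limma adjusted p = 0.644). On the other side lay Zscan12, a zinc finger gene at 17.6 to 25.3 TPM, with differences of −0.10 (limma adjusted p = 0.682) and 0.02 (limma adjusted p = 0.935).

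Within 500 kb of Gpx5 and Gpx6 the tables list 58 other genes, of which 29 could be tested at E9.25 and 30 at E10.5. A single neighbor, Hist1h2aj, rose with loss of Gli3 at E9.25, against 0.136% of all genes tested that passed there. At E10.5 there were 3 such neighbors, Hist1h2an, Hist1h2aj and Hist1h2ai, against 4.77% of all genes tested. These are replication-dependent H2A histone genes with near-identical copies, so reads may be split between them and each value is uncertain. Hist1h2aj had a log2 difference of 2.14 at E9.25 (limma adjusted p = 0.0380) and 1.96 at E10.5 (limma adjusted p = 0.00257). Hist1h2an and Hist1h2ai had differences of 1.88 (limma adjusted p = 0.00197) and 1.74 (limma adjusted p = 0.00789) at E10.5. All 3 lie 404 to 475 kb from Gpx6. None of the 14 neighbors without a Hist1 name that were tested at each stage passed. Their differences were −0.24 to 1.19 at the early stage and −1.02 to 0.74 at the late stage. Among them, AL589651.2 lies within the Hist1 cluster and overlaps Hist1h2aj. In the wider region within 20 Mb of Gli3, 3 of 159 tested genes other than the members (1.89%) passed at E9.25 and 10 of 169 (5.92%) at E10.5. These counts include the Hist1 genes named above.

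**Figure D2:**
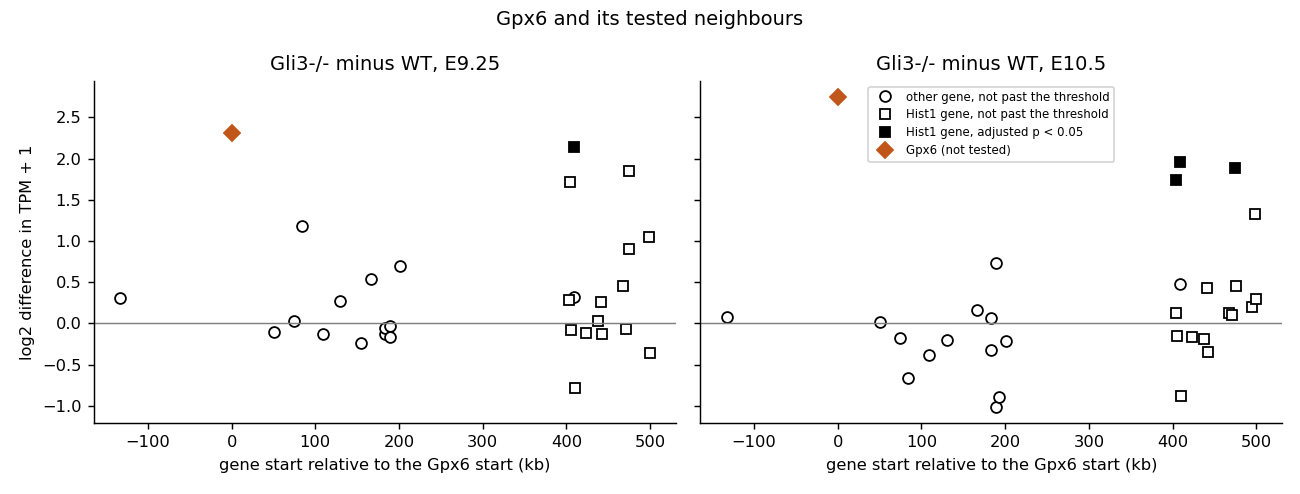
Log2 difference between Gli3-/- and WT limbs (vertical axis, log2 of TPM + 1) of Gpx6 and its tested neighbors, by the distance of the gene start from the Gpx6 start in kb (horizontal axis), at E9.25 and E10.5; filled squares are Hist1 genes past the threshold. Gpx6, at 2.31 and 2.75, was chosen by its values, so its place among the neighbors is a description only. The neighbors past the threshold are the distant H2A histone genes.

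Genes with a pattern like that of Gpx6 were ranked by Pearson's r of log2(TPM + 1) over the 14 libraries, among 16368 genes. The libraries share their genotype and stage, so that r describes a shared pattern of 4 groups. The highest values were those of Hist1h2an (0.892), Hist1h2aj (0.884), Plxnc1 (0.879), Ccnd1 (0.871) and Hist1h2ai (0.864). Plxnc1, a semaphorin receptor gene, was at 0.224 to 0.635 TPM in the WT libraries and 0.784 to 1.31 TPM in the Gli3-/- libraries, near the floor throughout. Ccnd1, which encodes cyclin D1, was at 90.8 to 112 TPM in WT and 119 to 192 TPM in Gli3-/- libraries.

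Of the other 7 members, 6 reached 1 TPM in 3 or more libraries of a comparison, the filter for testing, and Gpx5 did not. At E9.25, 0 of these 6 differed between genotypes by limma, where 0.136% of all genes tested passed (0.108% upward and 0.0271% downward). Gpx2, Gpx3 and Gpx8, which is 3 of 6, had an unadjusted p under 0.05, as had 22.0% of all genes tested. No member had groups that did not overlap, against 13.3% of all genes. The median gene tested was itself 0.23 higher on the log2 scale in Gli3-/- limbs at E9.25. Relative to it, the differences were −0.31 for Gpx1, −1.12 for Gpx2, 0.47 for Gpx3, −0.43 for Gpx4, −0.18 for Gpx7 and −0.68 for Gpx8. At E10.5, 1 of 6 passed, and it was upregulated, where 4.77% of all genes tested passed in either direction, 1.84% upward and 2.93% downward. Gpx1, Gpx2, Gpx3 and Gpx8, which is 4 of 6, had an unadjusted limma p under 0.05 at E10.5, as had 19.6% of all genes tested. The genotypes did not overlap for 3 of the 6, Gpx2, Gpx3 and Gpx8, against 19.3% of all genes tested.

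**Figure D3:**
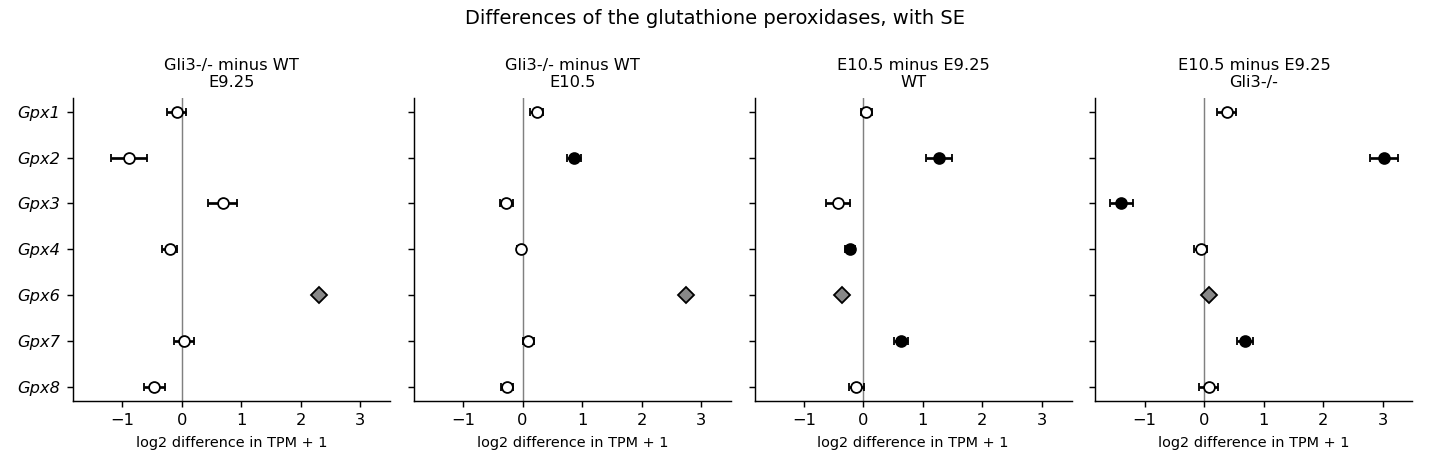
Log2 difference (horizontal axes, log2 of TPM + 1) of 7 members, all but Gpx5, in the comparisons of genotype and of stage, with bars for the standard error and filled circles for a limma adjusted p under 0.05. Gpx6, drawn as a gray diamond without an error, was not tested, and Gpx2 was past the threshold in 3 of the 4 comparisons.

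Gpx2 rose in Gli3-/- limbs at E10.5, and its genotype difference itself differed between the stages. At E10.5 it was at 6.52, 6.49, 7.39 and 8.43 TPM in WT and 14.85, 12.6 and 14.1 TPM in Gli3-/- limbs. Every Gli3-/- library was above every WT library. Gpx2 thus rose 1.92-fold in mean TPM, a log2 difference of 0.86 (SE, the standard error, 0.12, limma adjusted p = 0.00363). At E9.25 it was at 1.55, 2.29 and 3.66 TPM in WT and 0.50, 0.77, 0.44 and 1.93 TPM in Gli3-/- limbs. The E9.25 groups overlapped through Gli3-/- replicate 4, and the log2 difference of −0.89 (SE 0.30, limma adjusted p = 0.217) did not pass. The interaction of stage and genotype over the 14 libraries was 1.75 (SE 0.34, limma adjusted p = 0.0154), where 2.13% of all genes tested passed, 0.477% upward and 1.65% downward. A single model of all 14 libraries shared 1 estimate of the spread. In it the E10.5 difference did not pass (limma adjusted p = 0.0850) and the E9.25 difference did (limma adjusted p = 0.0449). That model passed 1185 of 14760 genes tested at E9.25, against 20 in the separate fit. At E10.5 it passed 406 of 15654, against 747.

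Among the members tested, Gpx2 also had the widest change between stages. It rose from 2.50 ± 1.07 TPM (SD, n = 3) to 7.21 ± 0.92 TPM (SD, n = 4) in WT limbs, and from 0.91 ± 0.69 TPM (SD, n = 4) to 13.9 ± 1.13 TPM (SD, n = 3) in Gli3-/- limbs. The log2 differences were 1.27 (SE 0.22, limma adjusted p = 0.00259) in WT and 3.02 (SE 0.24, limma adjusted p = 1.25e-05) in Gli3-/- limbs. The libraries of the stages did not overlap in either genotype. The genes most like Gpx2 over the 14 libraries were Zic5 (r = 0.987), a zinc finger transcription factor gene, and the distal limb patterning genes Hoxa11 (0.979) and Hoxa10 (0.974). Hoxa11 was at 0.419 to 2.78 TPM in E9.25 Gli3-/-, 3.55 to 8.83 in E9.25 WT, 62.6 to 73.9 in E10.5 WT and 110 to 124 TPM in E10.5 Gli3-/- limbs, the same order of groups as for Gpx2.

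Other signals that could enter the Gpx2 value were read beside it. Gpx2 (ENSMUSG00000042808.7, chromosome 12, 76792335 to 76795554) lies wholly within Fntb, which encodes the beta subunit of farnesyltransferase, on the opposite strand, and whether reads were counted by strand is not given in the sources used here. Fntb was at 16.8 to 32.2 TPM in the libraries and its log2 difference between genotypes at E10.5 was 0.003 (limma adjusted p = 0.988), and at E9.25 it was 0.44 (limma adjusted p = 0.227). Between the stages Fntb rose in WT limbs (0.39, limma adjusted p = 0.0297), and its difference in Gli3-/- limbs was −0.04 (limma adjusted p = 0.888). Its part in the Gpx2 values was not tested. The pseudogene Gpx2-ps1 on chromosome 7, which may share reads with Gpx2, was at no more than 1.65 TPM. The summed TPM of 9 ectoderm markers was 231 to 296 in E10.5 WT and 313 to 349 in E10.5 Gli3-/- libraries. Without Fgf8, the growth factor of the apical ridge, the sum of the other 8 was 162 to 238 in WT and 156 to 193 in Gli3-/- libraries, so that these groups overlapped. At E9.25 the sum of all 9 was 198 to 311 in WT and 275 to 423 in Gli3-/- libraries. There 8 of the 9 had differences above 0 and none passed. The median of the list was 0.14, below the 0.23 of all genes tested. Trp63, Epcam, Cdh1, Wnt6, Krt8, Esrp1 and Sp8 overlapped between genotypes. Krt18 was at 25.8 to 47.5 TPM in WT and 53.1 to 132 TPM in Gli3-/- libraries. Fgf8 went the other way, at 40.3 to 71.1 TPM in WT and 17.6 to 36.6 TPM in Gli3-/- libraries. In Gpx2, 3 of the 4 Gli3-/- libraries of E9.25 were below every WT library. Of these markers only Fgf8 passed between E10.5 genotypes (log2 difference 1.36, limma adjusted p = 0.000501), while 7 of the 9 had differences below 0 and the median of the list was −0.26. All 9 were at 1 TPM or more in every library. The part of the ectoderm in the Gpx2 values was not tested.

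Gpx3, the secreted form, fell between the stages in Gli3-/- limbs. It was at 54.4, 44.1, 53.9 and 29.9 TPM at E9.25 and 17.1, 15.2 and 16.5 TPM at E10.5. The stages did not overlap, and the log2 difference was −1.39 (SE 0.19, limma adjusted p = 0.000555). In WT limbs Gpx3 was at 34.4, 29.6 and 19.5 TPM at E9.25 and 21.8, 17.7, 22.9 and 17.6 TPM at E10.5. Those groups overlapped, and the log2 difference of −0.43 did not pass (limma adjusted p = 0.0959). It passed with quantile normalization (−0.76, limma adjusted p = 0.0121), with size factors (−0.78, limma adjusted p = 0.0128) and without E9.25 WT replicate 3 (−0.66, limma adjusted p = 0.0156). With sample weights the difference was −0.12 (limma adjusted p = 0.584). Relative to the median gene tested, it was −0.77. The interaction of stage and genotype did not pass for Gpx3 (−0.96, SE 0.29, limma adjusted p = 0.107), so that a different decline in the 2 genotypes was not shown.

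Between genotypes the Gpx3 differences had opposite signs at the 2 stages and did not pass at either. The log2 difference was 0.69 at E9.25 (SE 0.25, limma adjusted p = 0.217) and −0.27 at E10.5 (SE 0.11, limma adjusted p = 0.224). Flank and endothelial markers are given beside Gpx3 at E9.25. The E9.25 Gli3-/- library with the fewest flank marker transcripts, replicate 4 at 69.3 summed TPM, also had the lowest Gpx3 of its group, while replicates 1, 2 and 3 were at 119, 177 and 186. Among the flank markers Gata4 and Foxf1 passed with loss of Gli3 at E9.25, with log2 differences of 2.87 (limma adjusted p = 0.0128) and 3.68 (limma adjusted p = 0.0125), whereas Tbx18 was at −0.35 (limma adjusted p = 0.361). The summed TPM of 6 endothelial markers was 63.8 to 106 in WT and 119 to 169 in Gli3-/- libraries of E9.25, compared with 86.7 to 108 at E10.5, and none of the 6 passed between genotypes. Within the E9.25 Gli3-/- group the endothelial sums of replicates 1 to 4 were 119, 169, 136 and 124. Gpx3 was at 54.4, 44.1, 53.9 and 29.9 TPM in these replicates, an order other than that of the flank sums and of the endothelial sums. The part of either tissue in the Gpx3 values was not tested. The genes most like Gpx3 were Rnd2 (r = 0.974), Tmem88 (0.961) and Ntrk2 (0.958).

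**Figure D4:**
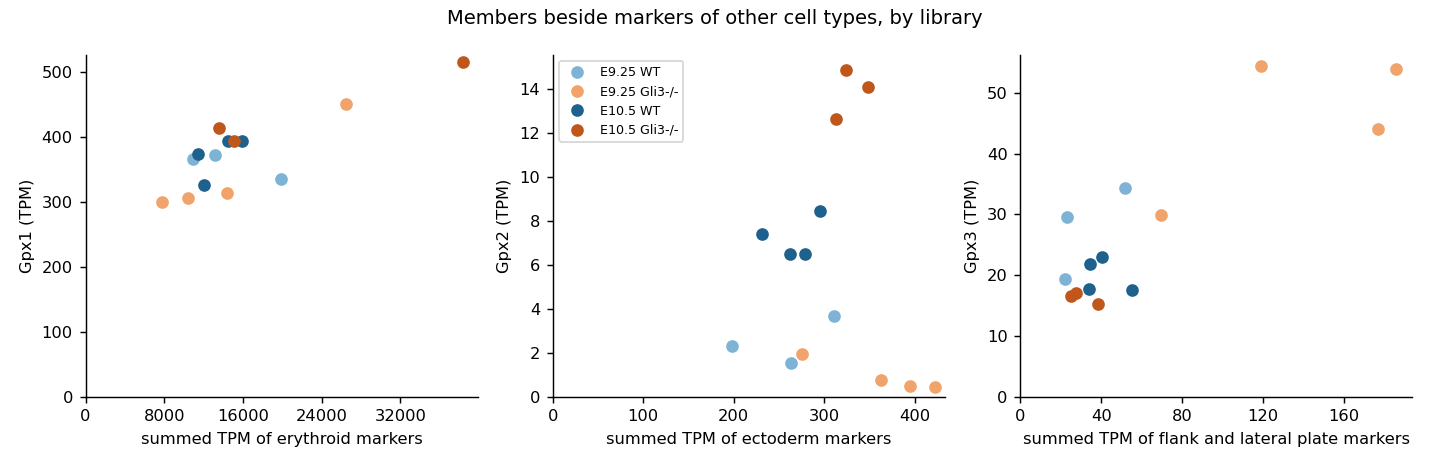
TPM of Gpx1, Gpx2 and Gpx3 (vertical axes) against the summed TPM of erythroid, ectoderm, and flank and lateral plate markers (horizontal axes), with 1 point per library colored by group. The 2 libraries with the highest erythroid sums, 26434 and 38343, had the highest Gpx1, and the 3 libraries with more than 100 flank marker TPM had the highest Gpx3.

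Gpx1 and Gpx4, the dominant members, did not pass between genotypes at either stage. Gpx1 was at 335, 367 and 373 TPM in WT and at 314, 300, 451 and 306 TPM in Gli3-/- libraries of E9.25, and at 394, 374, 394 and 326 TPM in WT and 415, 393 and 516 TPM in Gli3-/- libraries of E10.5. The genotypes overlapped at both stages, with log2 differences of −0.08 (SE 0.16, limma adjusted p = 0.739) and 0.24 (SE 0.11, limma adjusted p = 0.255). In each mutant group 1 library, replicate 3, stood above the others in Gpx1. Those were also the libraries with the most erythroid marker transcripts, at 26434 and 38343 summed TPM, against 7775 to 19895 in the other 12 libraries. In the E9.25 Gli3-/- group the libraries had the same order in Gpx1 and in the erythroid sum. In the other groups the orders differed. E9.25 WT replicate 1 had the highest erythroid sum of its group, 19895, and the lowest Gpx1. In the E10.5 mutants, replicate 1 had more Gpx1 than replicate 2 with a lower erythroid sum, 13595 against 15098. The part of blood in the Gpx1 values was not tested. Cldn13 (r = 0.891), Bpgm (0.871), an enzyme of red cells that makes the hemoglobin regulator bisphosphoglycerate, and Gatsl3 (0.863) were the genes most like Gpx1.

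Gpx4 was the steadiest member, between 210 and 308 TPM in all libraries. Its log2 difference between genotypes was −0.20 at E9.25 (SE 0.13, limma adjusted p = 0.313) and −0.03 at E10.5 (SE 0.06, limma adjusted p = 0.814). It fell between the stages in WT limbs, from 283 ± 21.3 TPM (SD, n = 3) to 241 ± 10.2 TPM (SD, n = 4), a log2 difference of −0.23 (SE 0.08, limma adjusted p = 0.0445). That call was lost in 5 of 10 other settings, with limma adjusted p-values up to 0.276, and without E9.25 WT replicate 2 or E10.5 WT replicate 1, 3 or 4, with values up to 0.138. The difference ranged from −0.12 with quantile normalization (limma adjusted p = 0.276) to −0.60 with size factors (limma adjusted p = 0.0113), and was −0.57 relative to the median gene tested. In Gli3-/- limbs the stage difference was −0.06 (limma adjusted p = 0.740). The genes most like Gpx4 were Rps23 (r = 0.952), Siva1 (0.952) and Uqcc2 (0.948), which encode a ribosomal protein, an apoptosis regulator and an assembly factor of the respiratory chain.

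The members of the endoplasmic reticulum differed by stage rather than by genotype for Gpx7, and by neither test for Gpx8. Gpx7 was at 14.0, 15.0 and 11.7 TPM in WT and at 14.9, 11.8, 14.6 and 14.6 TPM in Gli3-/- libraries of E9.25, and at 20.4, 23.0, 21.1 and 21.4 TPM in WT and 22.3, 25.6 and 21.5 TPM in Gli3-/- libraries of E10.5. Every E10.5 library was above every E9.25 library. Gpx7 rose between the stages in WT (log2 difference 0.63, SE 0.12, limma adjusted p = 0.0042) and in Gli3-/- limbs (0.69, SE 0.13, limma adjusted p = 0.00358). The median gene tested was itself 0.34 higher at E10.5 in WT limbs, and relative to it the WT difference of Gpx7 was 0.29. The WT call was lost in 2 of 10 other settings (limma adjusted p up to 0.226). Between genotypes the differences were 0.04 at E9.25 (limma adjusted p = 0.878), where the sign depended on the scaling, and 0.10 at E10.5 (limma adjusted p = 0.587).

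Gpx8 was at 75.4, 86.3 and 90.4 TPM in WT and at 77.5, 53.9, 47.3 and 68.9 TPM in Gli3-/- libraries of E9.25, and at 68.6, 83.7, 68.3 and 90.6 TPM in WT and 64.1, 64.3 and 63.9 TPM in Gli3-/- libraries of E10.5. At E10.5 the mutant libraries were close together and all below the WT libraries, but the log2 difference of −0.26 did not pass (SE 0.10, limma adjusted p = 0.203). At E9.25 the difference was −0.46 (SE 0.18, limma adjusted p = 0.217) and the groups overlapped. Between the stages the Gpx8 difference was −0.12 in WT (limma adjusted p = 0.458) and 0.08 in Gli3-/- limbs (limma adjusted p = 0.772). Relative to the median gene tested, the WT stage difference was −0.45. It passed in 1 of 10 other settings (limma adjusted p = 0.0396). Gpx8 overlaps Cdc20b on the opposite strand, a gene at no more than 0.122 TPM. The genes most like Gpx8 were Polb (r = 0.973), Cept1 (0.947) and Ndufb5 (0.935), and among those most like Gpx7 were 2010107G23Rik (0.977) and Bend5 (0.965).

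Between the stages, 3 of the 6 tested members passed in WT limbs, Gpx2 and Gpx7 upward and Gpx4 downward, where 48.7% of all genes tested passed, 38.1% upward and 10.6% downward. In Gli3-/- limbs 3 of 6 passed, Gpx2 and Gpx7 upward and Gpx3 downward, where 25% of all genes tested passed, 15.8% upward and 9.17% downward. The stages did not overlap for 3 of the 6 in WT limbs, against 53.5% of all genes, and for 3 of the 6 in Gli3-/- limbs, against 35.7%. The count in WT limbs is close to the background share.

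The genes that supply glutathione peroxidases with substrate and selenium, and the parallel antioxidant systems, were read from lists of 76 genes. At E9.25, 0 of the 69 tested passed with loss of Gli3 by limma, and 12 (17.4%) had an unadjusted p under 0.05, where 22.0% of all genes tested did. At E10.5, 4 of 70 (5.71%) passed, where 4.77% of all genes did, and their median log2 difference was 0.01 against −0.02 for all genes. At an unadjusted p under 0.05 there were 14 of 70, where 19.6% of all genes passed. Among 10 NRF2 pathway genes only Nqo1, which encodes a quinone reductase, passed, and it fell from 15.3 to 23.3 TPM in WT to 6.83 to 8.30 TPM in Gli3-/- limbs, a log2 difference of −1.20 (limma adjusted p = 0.00205). Nfe2l2, which encodes NRF2 itself, had a log2 difference of −0.01 (limma adjusted p = 0.956). Of the 10 thioredoxin genes, Txnrd1, the cytosolic thioredoxin reductase, rose by 0.29 (limma adjusted p = 0.0405), and Txnip, the thioredoxin inhibitor, fell by 0.57 (limma adjusted p = 0.0275). Of the selenoprotein synthesis genes, Sephs2, which makes the selenium donor, rose by 0.31 (limma adjusted p = 0.0405), and the other 9 tested did not pass.

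No tested gene passed with loss of Gli3 at either stage in the lists for glutathione supply (9 tested), NADPH supply (7), peroxiredoxins with catalase and dismutases (9), ferroptosis and lipid peroxide handling (6 at E9.25 and 8 at E10.5) or endoplasmic reticulum oxidation (7). At an unadjusted p under 0.05 these lists held 1, 2, 1, 0 and 1 genes at E9.25 and 3, 0, 1, 1 and 0 at E10.5, where 22.0% and 19.6% of all genes tested passed. The most abundant genes of these lists, by mean TPM, were Slc3a2 and Gsr, Idh2 and Tkt, Prdx2 and Sod1, Ftl1 and Fth1, and Hspa5 and Pdia6. Gsr, the reductase that regenerates glutathione, had log2 differences of 0.47 at E9.25 (limma adjusted p = 0.217) and −0.09 at E10.5 (limma adjusted p = 0.698). Slc3a2, the heavy chain of the cystine transporter, was nearest to the threshold at E10.5 among those named, at 0.29 (limma adjusted p = 0.0529). Between the stages, 32 of 70 list genes passed in WT limbs, 24 upward and 8 downward, where 48.7% of all genes passed, and 19 of 71 in Gli3-/- limbs, 13 upward and 6 downward, where 25% did. The interaction of stage and genotype passed for 1 of 71 list genes, Nqo1 (−1.26, limma adjusted p = 0.0123), where 2.13% of all genes tested passed.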

How the data were processed

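RNA was sequenced from 14 pools of forelimb buds, and other data types of the study were not used here. Buds were collected in TRIzol, and single reads of 100 bases were aligned with HISAT2 by the authors. The submitters' notes give the build mm10, and the annotation and the tool that made the gene tables are not given in the sources used here. The authors deposited the TPM of each gene, used for every comparison. The deposited FPKM values and coverage (signal, the mean depth per base) served to estimate reads per library, and TPM-scaled coverage was an alternative. No counts were used.

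TPM of gene IDs on several lines was summed. Genes that reached 1 TPM in 3 or more libraries of a comparison were tested on log2(TPM + 1) with limma 3.58.1 in R 4.3.3 (two-sided, trend in the variance), with Benjamini-Hochberg adjustment over all genes tested and a threshold of 0.05. E9.25 genotypes, E10.5 genotypes, stage within each genotype, and the interaction over 14 libraries were fitted. The procedure was tested on simulated data. Tables were handled in Python 3.11.15 (pandas 2.3.3). All 8 members matched RefSeq genes at overlapping positions in GRCm38.p6.

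The members and lists were chosen with earlier results of these data known. Named genes were the members, list genes that passed between genotypes or else the most abundant 2 of a list, neighbors within 500 kb that passed or lay nearest, and the genes with the highest r to a member, of which 1 is not reported here. Replicates are separate pools of embryos, and p-values measure the spread between pools. Alternatives were another pseudocount, other filters, no trend, other scalings, sample weights, a replicate block, 1 model of all libraries and each library left out.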

Additional observations from a re-analysis of the deposited data

Results flagged for a closer look

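In the E9.25 Gli3-/- group, Gpx1 of replicate 3 stood apart from the other libraries, at 8.82 on the log2(TPM + 1) scale (451 TPM) with a gap of 0.887 of the range of the group. Gpx7 of replicate 2 stood below the others of the same group, at 3.68 (11.8 TPM) with a gap of 0.905 of the range. In all, 14 groups of 4 libraries were screened, and by chance about 1 in 20 such groups holds a library so far apart. For Gpx2, the difference between Gli3-/- and WT limbs was itself unequal at the 2 stages, by 1.75 on the log2 scale (E10.5 minus E9.25), in a test of the interaction (limma adjusted p = 0.0154).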

How the results depend on the processing

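Of 623 alternative values of the members' log2 differences, 579 kept their direction and their side of the threshold or moved by less than the spread, 13 were no longer past it, 9 were newly past it, 7 moved further and 15 changed sign. In a single model of all 14 libraries, 1 member (Gpx2) passed at E9.25, where 1185 of 14760 genes tested passed. At E10.5, 0 members passed in that model, where 406 of 15654 genes tested passed. With a replicate block by the numbers of the sample titles, 0 members passed for the interaction (Gpx2, limma adjusted p = 0.0579), and it ended no other call of a member between genotypes. Same-numbered libraries did not deviate together (mean r of −0.18 at E9.25, and −0.054 at the later stage), and with the file numbers at E10.5 the mean r was 0.19, with not every pair above 0.1. With each library left out, members past the threshold numbered 0 to 0 for genotype at E9.25, 1 to 1 for genotype at E10.5, 2 to 4 for stage in WT, 3 to 4 for stage in Gli3-/- and 1 to 2 for the interaction, where Gpx3 joined Gpx2 without E9.25 WT replicate 1 or Gli3-/- replicate 4.

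The signs that changed were those of small differences that did not pass. Gpx7 at E9.25 was −0.23 with quantile normalization, −0.19 with size factors and −0.051 to 0.116 with a library left out (the lowest without WT replicate 3). Gpx4 at E10.5 was 0.0060 and Gpx1 for stage in WT was −0.31 with size factors. For stage in Gli3-/-, quantile normalization gave 0.055 for Gpx4 and −0.054 for Gpx6, sample weights gave −0.099 for Gpx6 and −0.018 for Gpx8, and Gpx8 was −0.0048 with size factors and −0.042 to 0.191 with a library left out, the lowest without E9.25 Gli3-/- replicate 3. The interaction of Gpx7 was −0.063 with sample weights and −0.016 to 0.151 with a library left out, below 0 without E9.25 WT replicate 2 (−0.013) and without replicate 2 of either Gli3-/- group. The causes were not tested.

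Counts over all genes depended more on the settings. At E9.25, 20 genes passed, against 0 without the filter (3542 at an unadjusted p under 0.05), 53 with sample weights, 66 with the replicate block, 1185 in the single model and 2 to 196 with a library left out. At E10.5, 747 passed, against 391 without the filter, 1356 with sample weights, 164 with the replicate block, 406 in the single model and 301 to 680 with a library left out. For stage in WT, 7520 passed and 4699 with the replicate block, and the split of 5885 upward and 1635 downward became 2668 and 3050 with quantile normalization and 3073 and 3334 with size factors. For stage in Gli3-/- 3853 passed, and with a library left out 2129 to 4326. For the interaction 348 passed, against 830 with sample weights, 42 with the replicate block and 150 to 1433 with a library left out. Gpx6 fell below the filter at E10.5 without any 1 of its 3 Gli3-/- libraries, and no value is given for those fits. The WT levels of Gpx6 rest on few reads, and Gpx5 could be present below what this depth detects.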
